A study of Mus musculus with 6 samples.

Results

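The transcripts of 50 genes that carry cells through mitosis were followed in ID8 cells, a line derived from mouse ovarian surface epithelium. The 50 genes were chosen by symbol in the count table and cover mitotic kinases and cyclins, the chromosomal passenger complex, the spindle checkpoint, the kinetochore, kinesins, spindle proteins, condensin and cytokinesis. They are 50 of 53465 genes in the table. All 50 had 10 or more counts in at least 3 of the 6 libraries, and all 50 were among the 8200 genes tested. The tested libraries are labelled KO, numbered 4, 5 and 6, and were taken to be the cells that the series describes as stably carrying a guide against Nat10 (sgNat10). The libraries they are set against are labelled WT, with the same numbers, and were taken to be cells stably carrying a control guide (sgNC). NAT10 acetylates cytidines in RNA, and the study asked how the transcriptome, with attention to the DNA damage response, changes on its depletion. The series calls the sgNat10 cells a knockdown. Each guide stands for a single line, so the guide and the line cannot be told apart. The labels do not say whether libraries of a group are separate cultures, and the p-values rest on a spread that may be technical.

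In a dividing cell, cyclin B with the kinase CDK1 starts mitosis, the condensin complex compacts the chromosomes, and kinesin motors and microtubule-binding proteins build the spindle. Kinetochores attach each chromosome to spindle microtubules, and the spindle checkpoint holds the cell until all are attached. The anaphase-promoting complex (APC/C) then marks cyclin B for destruction, and the cell divides by cytokinesis. Many of these genes are transcribed together late in the cell cycle, through promoters that carry a CHR element, the site at which the DREAM and MuvB complexes bind, close to boxes bound by NF-Y.

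That shared promoter feature was visible in the sequences. Windows from RefSeq (GRCm38.p6) that run from 250 bases before to 50 after an annotated start were found for 43 of the 50 genes, in 46 windows. The genes without one are Ccna2, Aurkb, Incenp, Spc24, Kif20a, Tpx2 and Smc4. The windows of 6 genes are shown: Aurka, Kif18b, Bub3 and Cenpe for an unadjusted p under 0.05, Top2a for the highest level per length, and Kif15 for the highest fold change. Each is written 5′ to 3′ on the strand of its gene, and capitals mark TTTGAA or TTTAAA (the CHR element) and CCAAT (the NF-Y box) on either strand. Bub3 has a second listed start, which is not shown.
Aurka: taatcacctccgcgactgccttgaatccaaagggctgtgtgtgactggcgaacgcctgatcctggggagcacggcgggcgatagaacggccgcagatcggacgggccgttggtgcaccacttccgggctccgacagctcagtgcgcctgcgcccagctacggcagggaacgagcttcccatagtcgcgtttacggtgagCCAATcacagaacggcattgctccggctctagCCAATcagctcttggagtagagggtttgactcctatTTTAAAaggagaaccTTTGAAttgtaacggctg
Kif18b: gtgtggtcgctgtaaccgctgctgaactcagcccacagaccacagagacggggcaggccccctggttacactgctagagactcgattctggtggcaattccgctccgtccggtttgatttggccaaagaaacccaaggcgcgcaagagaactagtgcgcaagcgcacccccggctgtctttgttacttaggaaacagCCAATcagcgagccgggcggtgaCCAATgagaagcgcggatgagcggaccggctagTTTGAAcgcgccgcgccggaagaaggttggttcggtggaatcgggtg
Bub3: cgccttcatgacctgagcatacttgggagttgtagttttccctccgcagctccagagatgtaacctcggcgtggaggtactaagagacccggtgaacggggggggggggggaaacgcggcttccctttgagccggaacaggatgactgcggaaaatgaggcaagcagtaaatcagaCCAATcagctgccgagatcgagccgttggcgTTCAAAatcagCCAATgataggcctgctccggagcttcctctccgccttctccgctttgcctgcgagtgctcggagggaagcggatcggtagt
Cenpe: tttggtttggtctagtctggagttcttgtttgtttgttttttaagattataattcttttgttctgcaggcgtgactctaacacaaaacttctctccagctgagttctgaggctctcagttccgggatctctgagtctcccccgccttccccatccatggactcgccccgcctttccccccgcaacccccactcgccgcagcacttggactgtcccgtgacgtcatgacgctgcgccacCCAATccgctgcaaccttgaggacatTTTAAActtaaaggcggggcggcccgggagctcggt
Top2a: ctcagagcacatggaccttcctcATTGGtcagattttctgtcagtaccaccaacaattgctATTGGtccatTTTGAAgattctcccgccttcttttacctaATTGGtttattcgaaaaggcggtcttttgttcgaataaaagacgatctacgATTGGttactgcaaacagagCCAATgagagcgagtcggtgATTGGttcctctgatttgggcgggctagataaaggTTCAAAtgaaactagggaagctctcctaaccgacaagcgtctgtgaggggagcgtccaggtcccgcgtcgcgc
Kif15: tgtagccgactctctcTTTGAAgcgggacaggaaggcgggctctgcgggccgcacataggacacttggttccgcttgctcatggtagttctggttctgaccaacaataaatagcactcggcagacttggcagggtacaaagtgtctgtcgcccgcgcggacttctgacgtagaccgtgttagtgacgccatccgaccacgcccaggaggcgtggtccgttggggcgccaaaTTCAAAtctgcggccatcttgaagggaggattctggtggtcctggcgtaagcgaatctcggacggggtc

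Aurka (chr2:172370521-172370820, minus strand) has TTTGAA 32 bases after the start and CCAAT 51 and 19 bases before it (distances are to the first base of the match), besides a TTTAAA. Kif18b (chr11:102925075-102925374, minus strand) has TTTGAA 3 bases after the start, with CCAAT 53 and 30 bases before it. Bub3 (chr7:131560120-131560419, plus strand) has TTTGAA 43 bases before the start, between CCAAT boxes at 74 and 32 bases before it. Cenpe (chr3:135212313-135212612, plus strand) has the TTTAAA form, 14 bases after the start, and CCAAT 12 bases before it. Top2a (chr11:99024140-99024439, minus strand) has 6 CCAAT boxes and TTTGAA 179 and 23 bases before the start. Kif15 (chr9:122950831-122951130, plus strand) has TTTGAA 234 and 19 bases before the start and lacks CCAAT in this window.

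Across the set, TTTGAA was present on either strand in 33 of the 43 genes (76.7%), against 20.2% of all 27025 genes with a window and 13.4% of the other tested genes. CCAAT was present in 32 of 43 (74.4%), against 41.1% of all genes. TTTAAA was present in 10 genes (23.3%), against 14.9% of all genes, and 36 of 43 (83.7%) had at least 1 of both CHR forms, against 30.6%. Both a CHR element and CCAAT were found in 30 of 43 (69.8%), against 12.2% of all genes. The E2F-type motifs TTGGCGC and TTCCCGC were found in 16.3% and 2.33% of the 43, against 2.85% and 5.29% of all genes. Among the other tested genes the shares were 5.65% for TTGGCGC, 11.1% for TTCCCGC and 42.4% for CCAAT. None of these motifs contains another, but TTGGCGC shares TTGG with the reverse of CCAAT, so matches of the pair can overlap. TTTGAA lay at or up to 49 bases after the start in 45.7% of the members' windows, against 2.25% of all windows, and in the 50 bases before it in 23.9%, against 2.82%. All 8 kinesin genes and all 4 cytokinesis genes with a window had TTTGAA, against 2 of 4 spindle assembly genes. These are matches of letters, which do not show that a factor binds there.

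**Figure D1:**
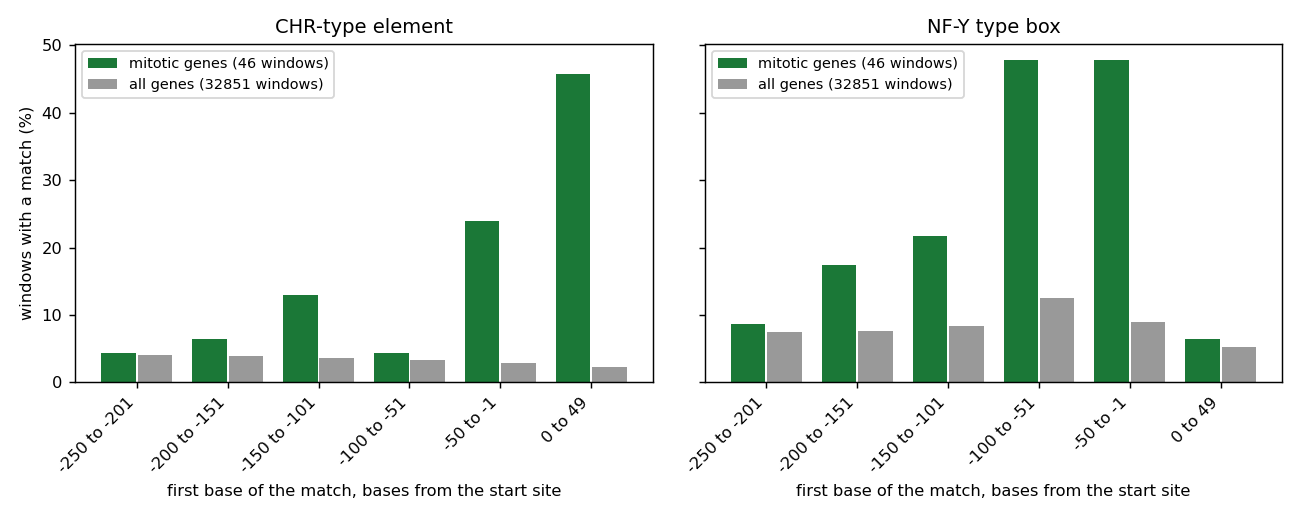
Share of promoter windows with a CHR-type element (TTTGAA, left) or an NF-Y type box (CCAAT, right) in bins of 50 bases, by distance of the first base of the match from the start (x axis, bases) and percent of windows (y axis). Green bars are the 46 windows of the mitotic genes and grey bars all 32851 windows. The CHR-type element peaks at 0 to 49 (45.7% of the members' windows) and the NF-Y type box between -100 and -1 (47.8% in each of both bins).

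The data are raw counts of poly(A) RNA reads per gene. Total counts ran from 2234305 to 3126208 in the libraries labelled KO and from 1687466 to 2148715 in those labelled WT, so that 1 count was worth 0.310 to 0.428 CPM (counts scaled to library size with TMM) in the KO-labelled and 0.500 to 0.608 CPM in the WT-labelled libraries. Nat10 itself had about the same level in both groups, with 315, 133 and 445 counts in libraries labelled KO, against 168, 128 and 292 in those labelled WT (log2 fold change -0.07 ± 0.48, SE; edgeR adjusted p = 0.99996). The counts cover the transcript as a whole, so they do not show whether the gene was edited, and directions below are those of the labels only. Of 15 markers of ovarian surface and mesothelial cells, 14 had a count, Epcam had none, and their summed level was 5015 to 5721 CPM in the KO-labelled and 6366 to 6890 CPM in the WT-labelled libraries. Single markers went both ways: of 10 tested, 6 had an estimate above 0 and 4 below, with a median log2 fold change of 0.61, and edgeR called 1 higher (Msln) and 2 lower (Krt18 and Krt19). Immune markers summed to at most 1.55 CPM in the KO-labelled and 14.5 CPM in the WT-labelled libraries (5 of 10 without a count), and endothelial markers to at most 2.17 CPM in KO-labelled and 5.996 CPM in WT-labelled ones. Fibroblast markers, 7 of 8 with a count, summed to 967 to 1325 CPM in the KO-labelled and 752 to 780 CPM in the WT-labelled libraries, while of the 2 that were tested 1 had an estimate above 0 and 1 below. The part of these differences in the results below was not tested.

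No mitotic gene passed the test, while most estimates lay slightly below 0 in the libraries labelled KO. Under the quasi-likelihood test of edgeR, adjusted over all 8200 genes by Benjamini-Hochberg, 0 of the 50 genes had an adjusted p under 0.05, where 0.402% of all tested genes were called (0.183% higher and 0.22% lower). At an unadjusted p under 0.05 there were 5, all lower (10% of the members), where 6.49% of all tested genes met that rule, 3.79% lower and 2.7% higher. DESeq2 called 1, Kif18b (adjusted p = 0.0483), where it called 2.5% of all genes it tested, and limma-voom called 0, against 0.524% of all. The estimate was below 0 for 44 of the 50 genes (88%), against 51% of all tested genes. With 1 library left out it was below 0 for 34 (without KO-labelled replicate 6) to 41 (without KO-labelled replicate 5). The median log2 fold change was -0.22, with the middle 25% to 75% of members from -0.44 to -0.08. For all tested genes the median was -0.02, with the middle 25% to 75% from -0.56 to 0.54. The members are abundant, with 34 of 50 in the highest 2 deciles of mean CPM. In those deciles the median over all 1640 genes was -0.07, and 57.1% of estimates were below 0. With library totals in place of TMM the median of the members was -0.11 and 36 of the 50 estimates were below 0, while the median of all genes moved to 0.09. That scaling also turned the calls over all genes to 27 higher and 16 lower, against 15 higher and 18 lower with TMM.

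The 50 genes together took a smaller share of the libraries labelled KO. Their summed CPM was 11650, 11919 and 12077 in KO-labelled replicates 4, 5 and 6, and 16407, 14539 and 13141 in WT-labelled replicates 4, 5 and 6. The KO-labelled libraries lay close together and below every WT-labelled library, and WT-labelled replicate 4 was the highest. The sum averaged 11882 ± 216 CPM in KO-labelled and 14696 ± 1639 CPM in WT-labelled libraries (SD, n = 3 each), or 1.19% and 1.47% of the scaled counts, a ratio of 0.809. The ratio lay between 0.767 and 0.859 with any 1 library left out, the highest without WT-labelled replicate 4. With library totals in place of TMM it was 0.871, nearer to equal. TMM factors were 1.018 to 1.056 in KO-labelled and 0.9405 to 0.9853 in WT-labelled libraries, which lowers CPM in the former and raises it in the latter. The separation of the sums is therefore stated for the TMM scale only. Cenpe, Top2a and Mki67 made up 35.2% of the difference of -2814 CPM, and the other 47 genes summed to 8518 to 8638 CPM in KO-labelled and 9895 to 10896 CPM in WT-labelled libraries (ratio 0.825). No p-value is given for a sum over chosen genes. In bulk RNA, fewer cells in mitosis and less RNA of these genes per cell cannot be told apart.

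**Figure D2:**
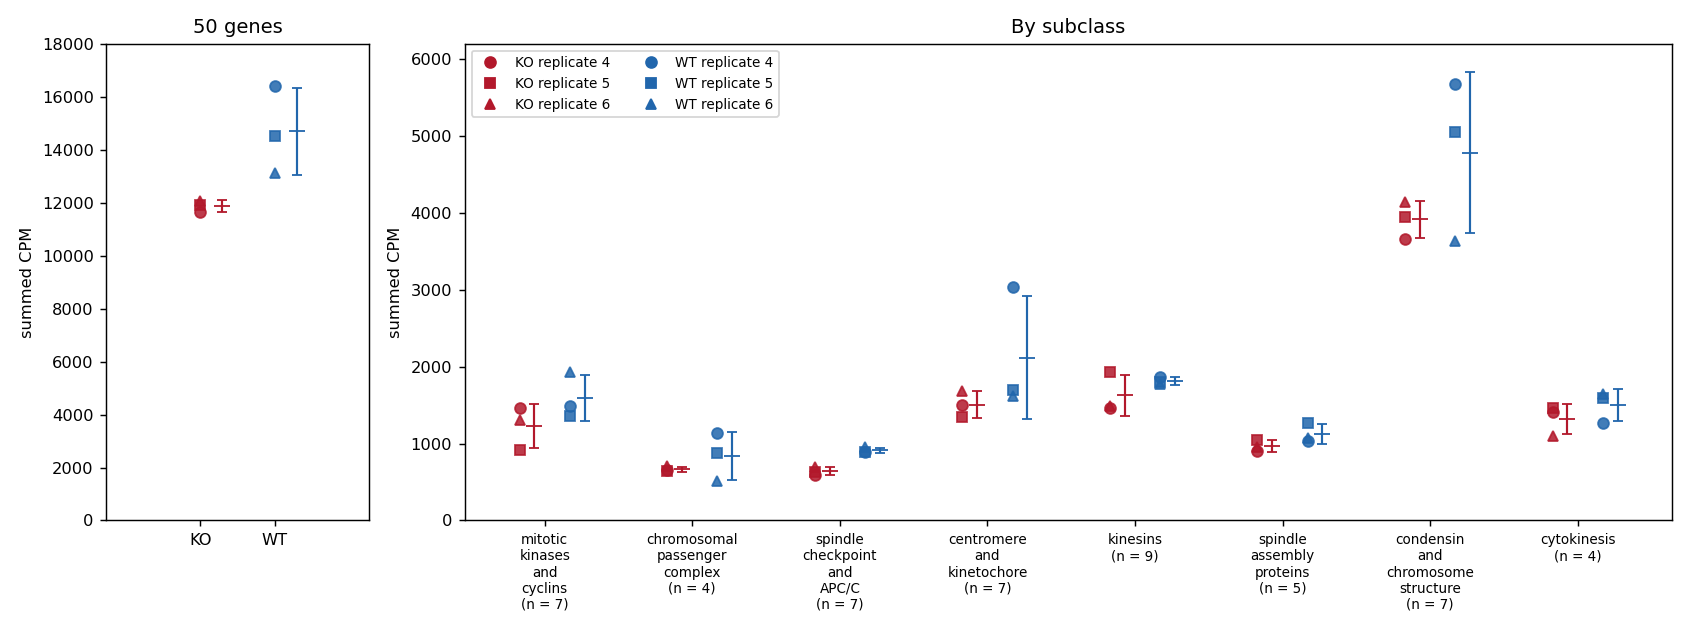
Summed CPM (y axis) of all 50 mitotic genes (left) and of each of the 8 subclasses (right, number of genes in brackets), with 1 point per library, red for the libraries labelled KO and blue for those labelled WT, and the mean ± SD of each group beside the points. The KO-labelled sums of 11650 to 12077 all lie below the WT-labelled sums of 13141 to 16407, and among the subclasses the spindle checkpoint and APC/C group is the one whose points do not overlap.

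The groups did not overlap for 4 of the 50 genes, Aurka, Spc24, Kif18b and Top2a, all lower in the KO-labelled libraries (8%, against 7.93% of all tested genes lower without overlap). No member was higher without overlap, against 6.94% of all tested genes. The share of members lower without overlap was thus near that of all genes. With library totals Top2a overlapped and 3 genes remained, and with DESeq2's size factors Cenpe was free of overlap as well. By subclass, the median log2 fold change was -0.54 for the spindle checkpoint and APC/C genes, -0.43 for kinases and cyclins, -0.40 for the centromere and kinetochore, -0.30 for condensin and chromosome structure and -0.27 for the passenger complex. It was -0.18 for the kinesins, -0.18 for the spindle assembly proteins and -0.16 for cytokinesis. All medians were below 0, but they moved with single libraries. With 1 library left out the median ran from -0.58 to -0.30 for the checkpoint, -0.57 to -0.19 for the kinases, -0.48 to -0.13 for the kinetochore and -0.43 to -0.13 for condensin. It ran from -0.49 to -0.04 for the passenger complex, -0.32 to 0.01 for the kinesins, -0.26 to -0.06 for spindle assembly and -0.25 to -0.05 for cytokinesis. The passenger complex, condensin and kinetochore were nearest 0 without WT-labelled replicate 4, and the kinases were nearest 0 without KO-labelled replicate 5 or WT-labelled replicate 6. Spindle assembly was nearest 0 without WT-labelled replicate 5, the kinesins and cytokinesis without KO-labelled replicate 6, and the checkpoint without KO-labelled replicate 4. The order of the subclasses is therefore not fixed by these data.

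**Figure D3:**
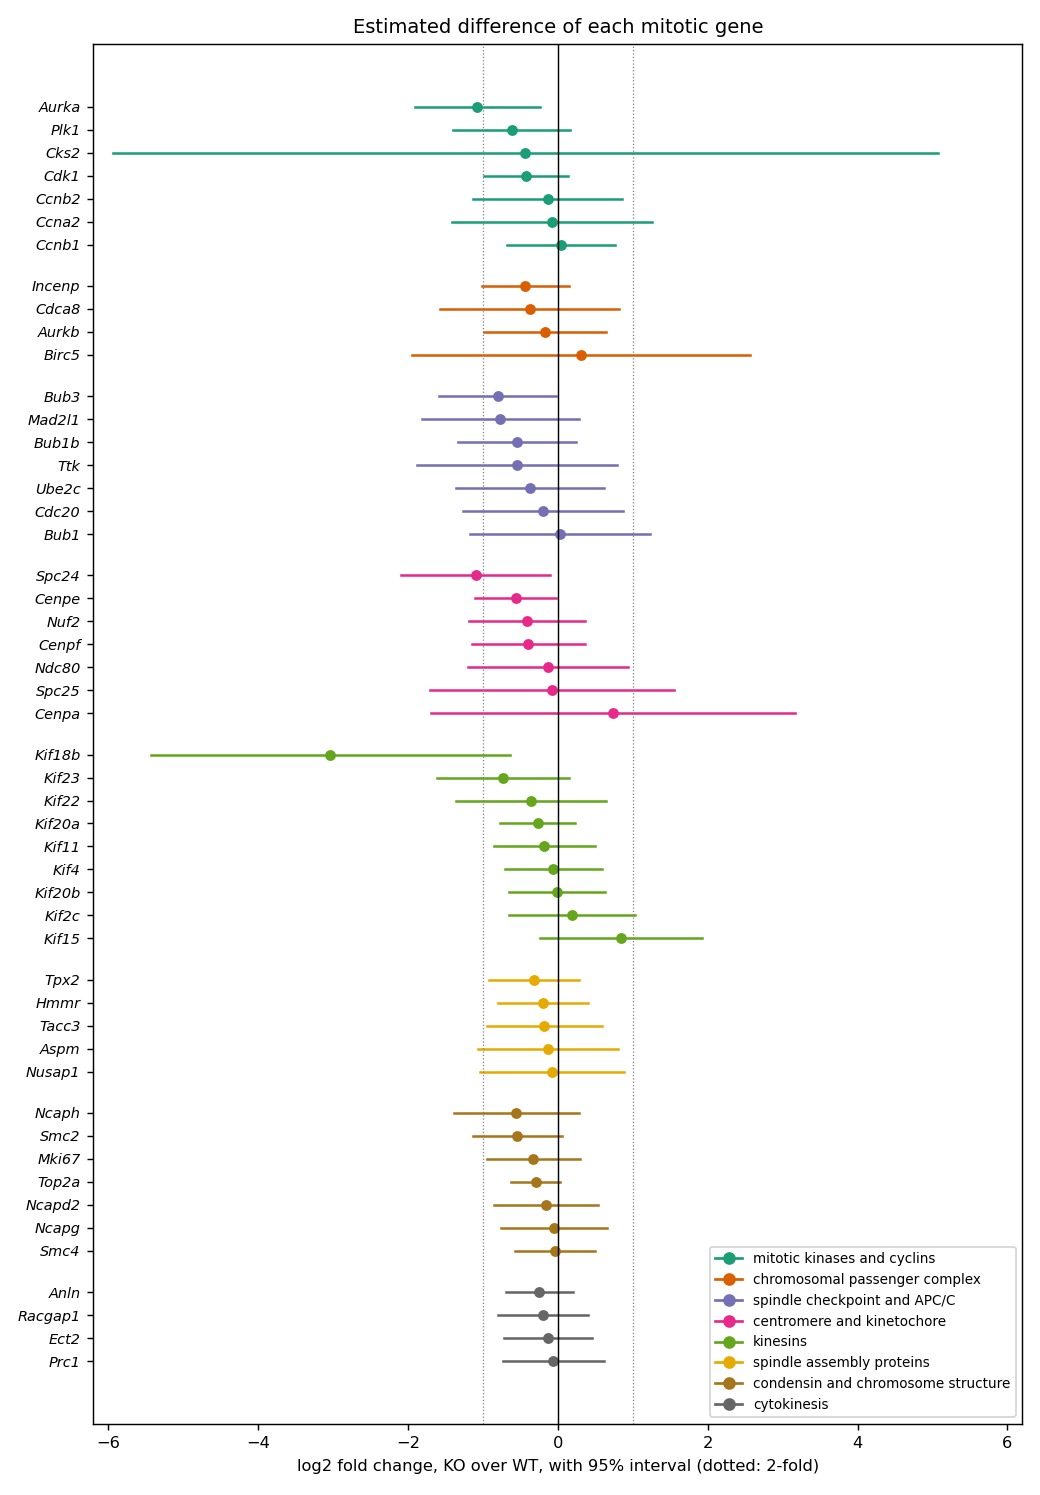
Log2 fold change of KO-labelled over WT-labelled libraries (x axis) with its 95% interval for each of the 50 mitotic genes (y axis, grouped and coloured by subclass), from edgeR. The dotted lines mark a 2-fold change either way. Most points lie just left of 0, the intervals of 19 genes stay between the dotted lines, and Kif18b (-3.04) stands apart.

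Among the kinases and cyclins that start mitosis, Aurka had the lowest estimate and Ccnb1 the highest. Aurka, the Aurora A kinase that matures centrosomes and builds spindle poles, had 62.8, 84.8 and 62.0 CPM in the libraries labelled KO, against 133, 152 and 157 CPM in those labelled WT. Every KO-labelled value was below every WT-labelled one, with a mean of 69.9 ± 12.9 CPM against 147 ± 12.8 CPM (SD, n = 3 each). The log2 fold change was -1.07 ± 0.39 (SE; 95% interval -1.91 to -0.24), with an unadjusted p of 0.0156 and an adjusted p of 0.524 in edgeR. It ran from -1.23 to -0.997 with 1 library left out. Cdk1, the kinase that drives entry, had the highest level of this subclass, with 797, 398 and 621 CPM against 729, 652 and 1058 CPM. Its groups overlapped (log2 fold change -0.43, interval -0.98 to 0.13, and -0.19 without KO-labelled replicate 5). Its partner Ccnb1 (cyclin B1) had 369, 166 and 199 CPM against 178, 264 and 272 CPM, an overlap with an estimate of 0.04 that turned to -0.38 without KO-labelled replicate 4. Ccnb2 and Ccna2, cyclins B2 and A2, had estimates of -0.13 and -0.08. Plk1, the Polo kinase of centrosomes and kinetochores, had 116, 120 and 130 CPM against 219, 107 and 236 CPM and an estimate of -0.62. Cks2, a small subunit that binds cyclin-dependent kinases, had 83, 0 and 0 counts in KO-labelled and 15, 0 and 60 counts in WT-labelled libraries. Each group held libraries with no count and libraries with many, and its interval of -5.94 to 5.07 sets no useful limit.

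The chromosomal passenger complex, which corrects faulty attachments through the Aurora B kinase, had no member without overlap. Incenp, its scaffold and the member with the highest CPM, had 403, 390 and 442 CPM in KO-labelled libraries, against 797, 529 and 347 CPM in WT-labelled ones. The KO-labelled libraries lay close together and the WT-labelled ones spread on both sides of them, and the log2 fold change of -0.44 moved to -0.09 without WT-labelled replicate 4. Birc5 (survivin), which brings the complex to the centromere, had 46.0, 38.5 and 21.7 CPM against 61.4, 6.995 and 17.3 CPM, with an interval of -1.94 to 2.56. Aurkb, the kinase, averaged 163 ± 29.1 CPM against 183 ± 81.7 CPM, and Cdca8 (borealin), a further subunit, 56.4 ± 22.9 CPM against 73.1 ± 27.0 CPM (SD, n = 3 each).

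The spindle checkpoint and APC/C genes had a median log2 fold change of -0.54, the lowest with all 6 libraries but not without KO-labelled replicate 4, WT-labelled replicate 4 or WT-labelled replicate 6. Their summed CPM was 598, 631 and 697 in KO-labelled libraries, against 896, 897 and 950 in WT-labelled ones. These sums did not overlap, while none of the 7 genes alone was free of overlap. Bub3, a checkpoint protein of unattached kinetochores, had 164, 83.9 and 133 CPM against 234, 285 and 145 CPM, where KO-labelled replicate 4 exceeded WT-labelled replicate 6. Its log2 fold change was -0.80 ± 0.36 (SE; 95% interval -1.58 to -0.03), with an unadjusted p of 0.0434 and an adjusted p of 0.723 in edgeR. Bub1, the kinase that recruits the other checkpoint proteins, had 59.3, 121 and 32.0 CPM against 67.5, 64.0 and 76.3 CPM. Its KO-labelled values lay on both sides of the WT-labelled ones, and the estimate of 0.03 was between -0.60 and 0.37 with 1 library left out. Mad2l1 (MAD2), the inhibitor of the APC/C, had an estimate of -0.77, and Bub1b (BUBR1) and the kinase Ttk (MPS1) had -0.55 and -0.54. Ube2c, the enzyme that supplies ubiquitin to the APC/C, and Cdc20, its activator, had -0.37 and -0.20. Subunits of the APC/C itself are not among the 7, and most of those tested had estimates above 0, as given with the further genes below.

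At the centromere and kinetochore, Spc24 and Cenpe had unadjusted p-values under 0.05. Spc24, a subunit of the NDC80 complex that grips microtubules, had 33.2, 83.1 and 74.5 CPM in KO-labelled libraries, against 156, 157 and 95.4 CPM in WT-labelled ones. The groups did not overlap, and the log2 fold change was -1.10 ± 0.47 (SE; 95% interval -2.09 to -0.10; unadjusted p 0.0331, adjusted p 0.651 in edgeR). Cenpe, a kinesin that carries chromosomes to the spindle equator, had 849, 763 and 897 CPM against 1876, 938 and 893 CPM. Its WT-labelled replicate 4 was about as high as the other WT-labelled libraries together, and the log2 fold change of -0.56 (interval -1.10 to -0.02, unadjusted p 0.0418 and adjusted p 0.713 in edgeR) became -0.13 without it. Cenpa, the histone that marks the centromere, had 17.6, 39.8 and 51.8 CPM against 4.86, 22.0 and 38.7 CPM. Those groups overlapped, with an estimate of 0.73 (interval -1.70 to 3.17), which was 0.26 without WT-labelled replicate 4. Cenpf, a large kinetochore protein, and Nuf2 had estimates of -0.40 and -0.41.

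The 4 subunits of the NDC80 complex had estimates of -1.10 for Spc24, -0.41 for Nuf2, -0.13 for Ndc80 and -0.08 for Spc25. Their 95% intervals overlapped, and differences between the subunits were not tested. Per kilobase of annotated exon, Spc24 stood at 24.7 ± 10.4 in KO-labelled and 52.9 ± 13.7 CPM per kb in WT-labelled libraries (SD, n = 3 each). Nuf2 stood at 18.9 ± 6.31 and 25.2 ± 3.29 CPM per kb, Ndc80 at 14.4 ± 6.03 and 15.7 ± 8.20, and Spc25 at 12.6 ± 4.73 and 13.3 ± 4.71. In the WT-labelled libraries Spc24 was thus the highest of the complex, and in the KO-labelled ones the levels of Spc24 and Nuf2 lay within their spread of each other. Exon length was taken over all annotated transcripts, so a level per kb is too low where long forms are not made.

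Among the 9 kinesins, Kif18b and Kif15 lay at opposite ends. Kif18b, a motor that shortens astral microtubules, had 43, 2 and 16 counts in KO-labelled and 155, 117 and 59 counts in WT-labelled libraries, or 16.8, 0.856 and 4.96 CPM against 94.2, 58.5 and 34.1 CPM. Every KO-labelled library was below every WT-labelled one, KO-labelled replicate 5 being nearly empty. The log2 fold change was -3.04 ± 1.12 (SE; 95% interval -5.43 to -0.64), with an unadjusted p of 0.0165 and an adjusted p of 0.531 in edgeR and 0.587 in limma-voom, and from -4.35 to -2.51 with 1 library left out. Kif15, which helps hold spindle poles apart, had 90.9, 192 and 99.6 CPM against 70.5, 109 and 33.5 CPM. Its groups overlapped, and its log2 fold change was 0.84 (interval -0.24 to 1.92; edgeR adjusted p = 0.989), and 0.43 without KO-labelled replicate 5. Kif11 (Eg5), the main motor that separates the poles, had 215, 355 and 165 CPM against 222, 302 and 308 CPM, an overlap with an estimate of -0.18. Kif20b, a cytokinesis motor, had 385, 394 and 339 CPM against 582, 313 and 234 CPM. Its mean CPM was the highest of the 9 genes in the kinesin subclass, but its CPM per kb was not. Its estimate of -0.01 became 0.45 without WT-labelled replicate 4.

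The other kinesins all had groups that overlapped. Kif20a, which moves the passenger complex to the midzone, had 319, 316 and 319 CPM against 305, 399 and 447 CPM, with KO-labelled values inside the WT-labelled range. Kif2c (MCAK), which takes microtubules apart at centromeres, had 135, 135 and 133 CPM against 67.5, 137 and 149 CPM, again inside it. Kif4, a chromosome-bound motor, averaged 229 ± 77.5 CPM against 239 ± 16.8 CPM, and Kif22, a motor that pushes chromosome arms, 87.3 ± 53.6 CPM against 112 ± 1.92 CPM (SD, n = 3 each). Kif23, the motor of the centralspindlin complex, had an estimate of -0.73 with an interval of -1.61 to 0.15. Of the 14 tested genes for transport kinesins and their partners, which work outside mitosis, 11 had an estimate above 0, with a median of 0.35. The calls among those 14 were 0 in edgeR and 0 in DESeq2, and no unadjusted p was under 0.05. The smallest p was that of Kifap3, a kinesin-2 partner, at 65.2 ± 14.0 CPM in KO-labelled and 118 ± 19.8 CPM in WT-labelled libraries (edgeR adjusted p = 0.858).

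**Figure D4:**
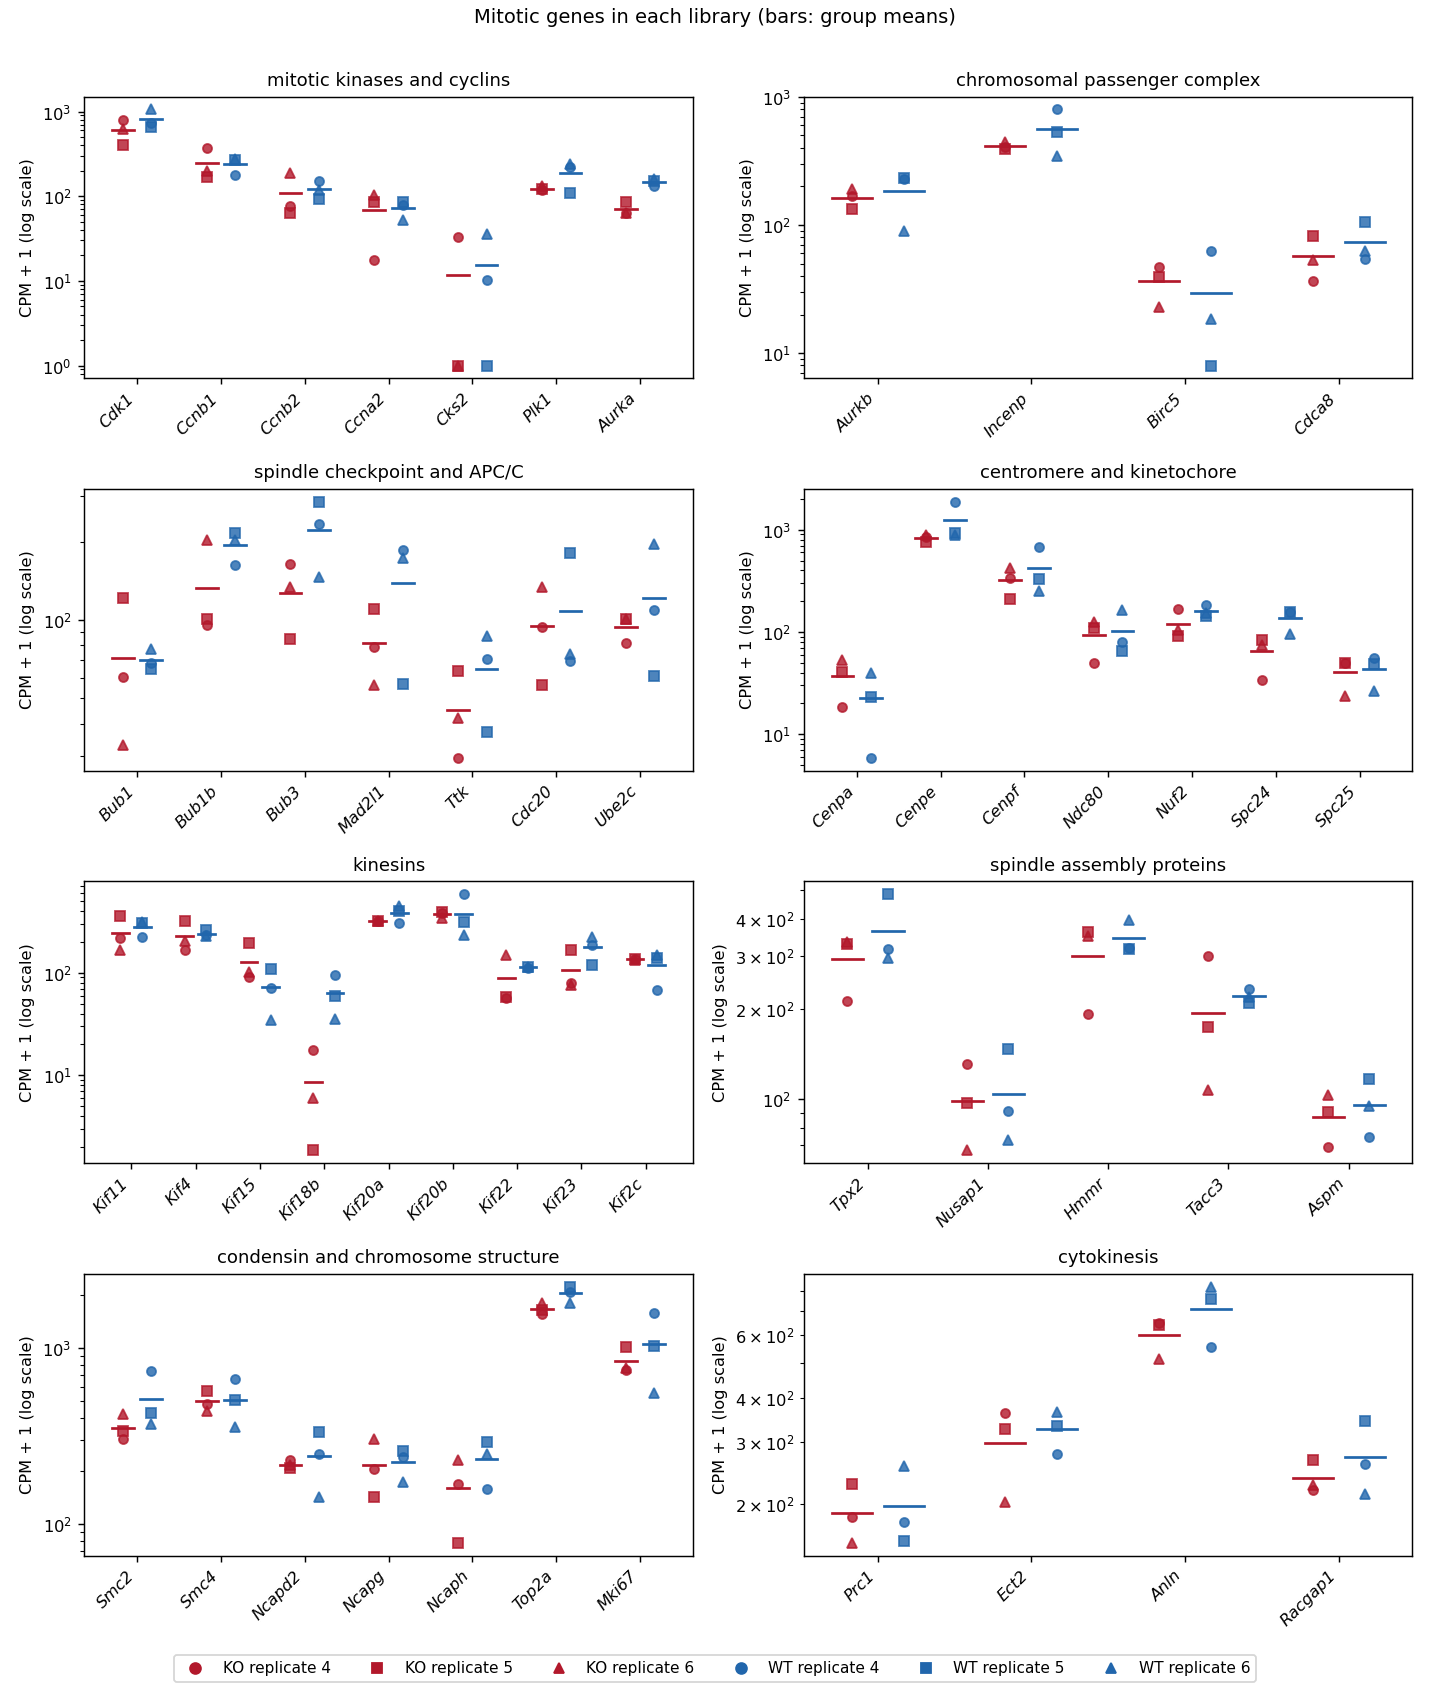
CPM + 1 (y axis, log scale) of each of the 50 mitotic genes (x axis) in each of the 6 libraries, 1 panel per subclass, with red points left for the libraries labelled KO and blue points right for those labelled WT, a symbol for each replicate number and bars for group means. The groups overlap for most genes, and Aurka, Spc24, Kif18b and Top2a are those in which all red points lie below all blue ones.

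The 5 spindle assembly genes all had estimates below 0 and none stood out. Tpx2, which activates Aurora A on the spindle, had 211, 329 and 334 CPM in KO-labelled libraries, against 315, 482 and 294 CPM in WT-labelled ones. The groups overlapped, with a log2 fold change of -0.32 (interval -0.92 to 0.28) that became -0.06 without WT-labelled replicate 5. Nusap1, a microtubule bundler, had 130, 95.9 and 66.4 CPM against 90.0, 146 and 71.7 CPM, with an estimate of -0.08. Hmmr, a spindle pole protein, had -0.20, Tacc3, which bundles kinetochore fibres, -0.18, and Aspm, a pole protein, -0.13. Aurka and its activator Tpx2 thus had estimates of -1.07 and -0.32, and the difference between the estimates was not tested.

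The genes of condensin and chromosome structure had the largest summed CPM of the 8 subclasses, 3919 ± 242 in KO-labelled and 4787 ± 1046 in WT-labelled libraries (SD, n = 3 each), and those sums overlapped. Top2a, the topoisomerase that untangles sister chromatids, had 1542, 1624 and 1779 CPM in KO-labelled libraries, against 2065, 2217 and 1799 CPM in WT-labelled ones. The groups did not overlap, but KO-labelled replicate 6 came close to WT-labelled replicate 6. The log2 fold change was -0.30 ± 0.155 (SE; 95% interval -0.63 to 0.03; edgeR adjusted p = 0.871), so that a 2-fold change lies outside the interval. Mki67, which coats mitotic chromosomes and is used as a marker of proliferation, had 741, 1008 and 763 CPM against 1570, 1026 and 554 CPM, an overlap in which the WT-labelled libraries spread widely. Ncaph, the kleisin subunit of condensin I, had 168, 77.1 and 228 CPM against 156, 290 and 249 CPM. Its groups overlapped, and its estimate of -0.56 was -0.22 without KO-labelled replicate 5. Smc4, a core ATPase, had 478, 566 and 436 CPM against 659, 506 and 353 CPM, with overlap and an estimate of -0.04 (interval -0.57 to 0.49). The other core ATPase, Smc2, had an estimate of -0.54, close to that of Ncaph, while Ncapd2 and Ncapg, the subunits with HEAT repeats, had -0.16 and -0.05. Per kb, the 5 subunits ran from 30.5 CPM for Ncapg to 94.7 for Smc4 in KO-labelled libraries and from 31.5 for Ncapg to 97.1 for Smc4 in WT-labelled ones.

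The 4 cytokinesis genes had estimates from -0.25 to -0.06, with all intervals inside a 2-fold change. Anln (anillin), which organises the contractile ring, had 648, 639 and 512 CPM in KO-labelled libraries, against 555, 758 and 821 CPM in WT-labelled ones. Prc1, which bundles the midzone microtubules, had 183, 228 and 155 CPM against 178, 157 and 255 CPM. Both overlapped between the groups, and the estimate for Anln of -0.25 was -0.13 without WT-labelled replicate 6. Ect2, the exchange factor that activates RhoA, averaged 296 ± 83.6 CPM against 324 ± 44.1 CPM, and Racgap1, a subunit of centralspindlin, 237 ± 25.6 CPM against 271 ± 66.0 CPM (SD, n = 3 each).

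The spread between libraries was wider than counting error alone would give. That error takes each read as an independent molecule, which amplified reads are not, and the source of the spread was not tested. The median coefficient of variation within groups was 34.4% over the 50 genes, where counting error alone would give 5.21%. It was 25.8% over all genes in the highest 2 deciles of CPM. Some of the 50 genes lie below those deciles, so these medians cover unlike ranges of level. Kif20a and Kif2c had the tightest KO-labelled libraries (coefficients of variation of 0.593% and 0.963%), and Kif22 the tightest WT-labelled ones (1.71%), while Cks2 reached 173% in the KO-labelled libraries. The 95% interval lay within a 2-fold change either way for 19 of the 50 genes (38%), against 9.44% of all tested genes. For the other 31 a 2-fold change is inside the interval. Of the 50 genes, 2, 4 and 5 had their highest value in KO-labelled replicates 4, 5 and 6, and 12, 13 and 14 in WT-labelled replicates 4, 5 and 6. The lowest value was in those libraries for 13, 12 and 11 genes among the KO-labelled and 3, 3 and 8 among the WT-labelled. The rank correlation of each library's deviations from its group mean with exon length over the 50 genes ran from -0.15 to 0.23, and with GC content from -0.28 to 0.33. These describe 50 genes of the same 6 libraries.

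**Figure D5:**
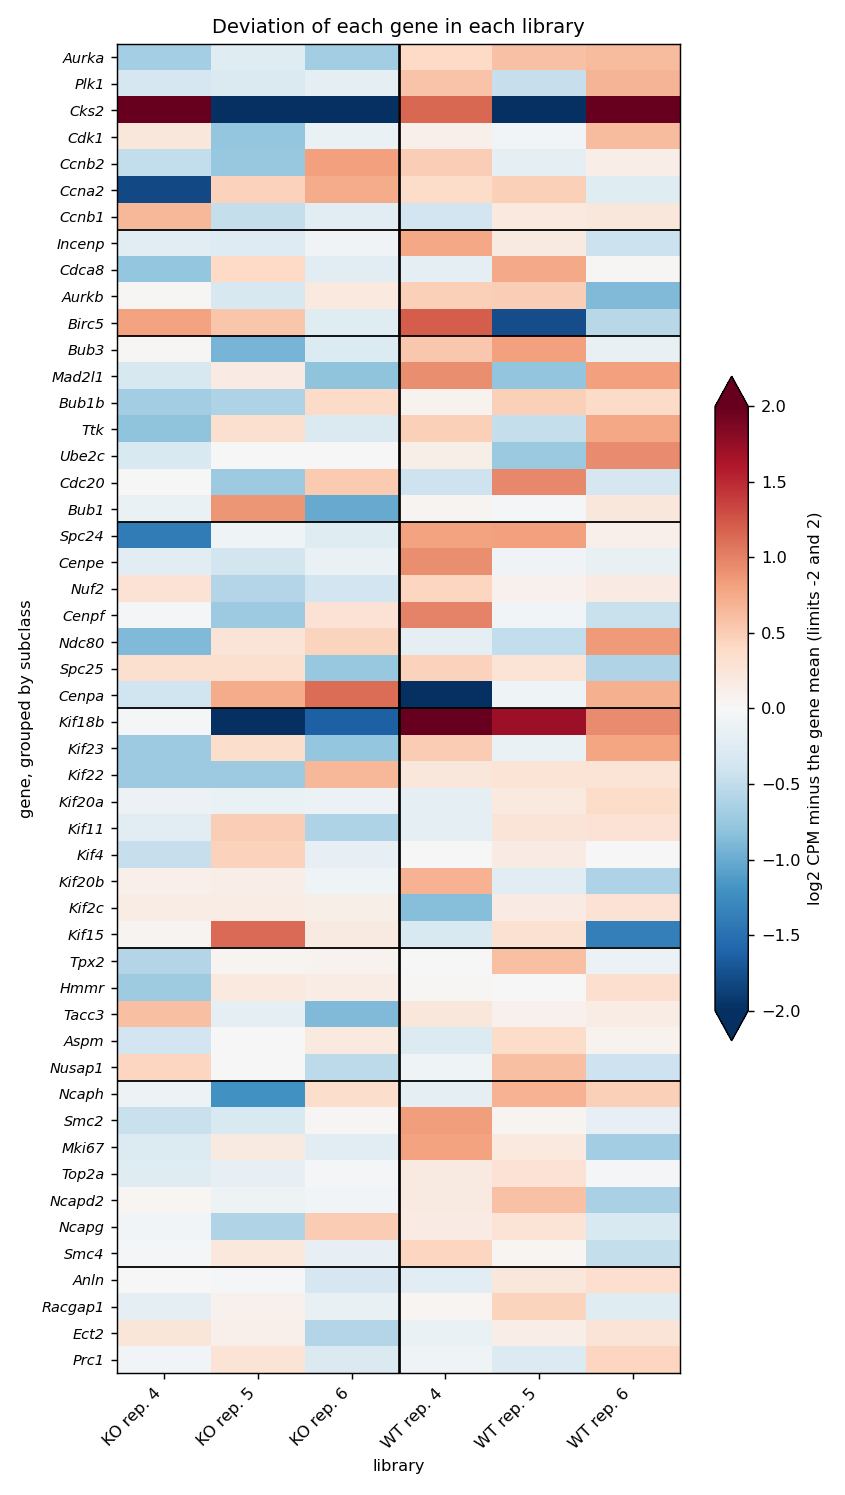
Log2 CPM of each of the 50 mitotic genes (rows, grouped by subclass) minus the gene's mean over the 6 libraries (columns, KO-labelled left), from blue (lower) to red (higher), with colours limited at -2 and 2. Few rows change colour cleanly at the line between the groups, Aurka and Kif18b among them, and Cks2 varies most within both groups.

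Further genes of mitosis outside the 50 gave no call in edgeR and 1 in DESeq2. Of 148 such genes found in the table, 139 were tested, and 0 passed in edgeR, while 8 had an unadjusted p under 0.05 (7 lower, 1 higher). These 8 are 5.76% of those tested, near the 6.49% of all tested genes. DESeq2 called 1 (0.719%, against 2.5% of all genes) and limma-voom called 0. Their median log2 fold change was -0.12, with 82 estimates below 0 and 57 above. The spindle and centrosome genes had a median of -0.35 (38 tested) and the inner kinetochore genes -0.25 (25 tested). The genes of the checkpoint, the APC/C and separase had 0.12 (26 tested), and those of entry and exit 0.05 (21 tested). In the former list 16 estimates were above 0 and 10 below. Most APC/C subunits in it were above 0, such as Anapc1 at 0.183 and Cdc16 at 0.945, while Cdc27 was at -0.204. Spag5 (astrin), a spindle and kinetochore protein, had the smallest p, with 61.6, 132 and 66.4 CPM in KO-labelled libraries, against 158, 221 and 300 CPM in WT-labelled ones. The groups did not overlap, and the log2 fold change was -1.39 ± 0.40 (SE; adjusted p 0.286 in edgeR and 0.0217 in DESeq2). Knl1, the kinetochore scaffold for BUB1, averaged 76.5 ± 34.5 CPM against 148 ± 18.1 CPM, and Espl1 (separase), which cuts cohesin at anaphase, 76.0 ± 12.5 CPM against 141 ± 15.8 CPM (SD, n = 3 each; edgeR adjusted p = 0.734 and 0.698).

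The genes of entry and exit had 11 estimates above 0 and 10 below. The smallest p among them was that of Foxm1, with an estimate above 0. This transcription factor, which with MuvB activates many promoters of the kind shown above, had 91.7, 54.0 and 69.5 CPM in KO-labelled libraries, against 24.3, 30.0 and 28.9 CPM in WT-labelled ones. Every KO-labelled library was above every WT-labelled one, with a log2 fold change of 1.37 ± 0.62 (SE; unadjusted p 0.0446, adjusted p 0.734 in edgeR). Of the 139 further genes tested, 8 were higher and 16 lower without overlap, where 6.94% and 7.93% of all tested genes were. Among cohesin genes Rad21, the ring's cleaved subunit, had the smallest p, at 312 ± 33.7 CPM in KO-labelled and 442 ± 35.7 CPM in WT-labelled libraries (edgeR adjusted p = 0.713). Among the further cytokinesis genes it was Pdcd6ip (ALIX) at 256 ± 14.8 CPM against 340 ± 42.7 CPM (edgeR adjusted p = 0.987), and among 11 tubulins Tuba1c, at 138 ± 51.7 CPM against 251 ± 22.0 CPM (SD, n = 3 each; edgeR adjusted p = 0.547).

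The genes of DNA replication, the neighbouring stage of the cell cycle, were less one-sided than the mitotic genes. Of 46 tested, 28 had an estimate below 0 and 18 above, with a median of -0.19, against -0.22 for the mitotic genes. The range was wider in the replication list, from -8.38 to 1.82, against -3.04 to 0.84 for the mitotic genes. Estimates below 0 made up 88% of the mitotic genes, 51% of all tested genes and 57.1% of those in the highest 2 deciles of CPM. The edgeR calls were 0 and those of DESeq2 2 (4.35%, against 2.5% of all genes it tested). In edgeR 2 genes had an unadjusted p under 0.05 (4.35%, against 6.49% of all tested genes). Uhrf1, which maintains DNA methylation at the fork, had the smallest p, with 203, 126 and 161 CPM in KO-labelled libraries, against 383, 273 and 447 CPM in WT-labelled ones. Its groups did not overlap (adjusted p 0.158 in edgeR and 0.00412 in DESeq2). The difference between the replication and mitosis lists was not tested.

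Estimates were also set beside the promoter letters. The 33 genes with TTTGAA had a median log2 fold change of -0.20 and the 10 without it -0.30, while the 30 genes with both a CHR element and CCAAT had -0.31 and the 13 without the pair -0.13. These medians are descriptions of the same libraries and were not tested.

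Reads of some members cannot be assigned with certainty, because other genes hold the same sequence and no source used here gives the strand setting. The share of each gene's 50-base stretches that also occur in transcripts of another gene, on either strand, was 29.7% for Cks2, 25.2% for Kif20a (shared with Cdc23), 23.4% for Ccnb1 (with a pseudogene, Ccnb1-ps), 16.0% for Ube2c and 14.5% for Kif4. It was 11.8% for Ncapg, 11.4% for Ccna2, 10.6% for Cdc20 and 10.4% for Plk1, and under 10% for the other 41. Of the genes named for low p-values, Spc24 had 3.62% and was the highest. The 50 genes lie on 16 chromosomes, with 8 on chromosome 2 and 6 on chromosome 9.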

How the data were processed

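Poly(A) RNA was sequenced from 3 libraries labelled KO and 3 labelled WT. The build mm10, fastp for the reads, HISAT2 2.0.5 as aligner and featureCounts 1.5.0-p3 as counter are named in the submitters' processing notes, without settings, strand mode or annotation. The authors deposited raw counts per gene, not normalized, and columns were matched to samples through the labels. Symbols, exons and positions come from GENCODE M21 of the same build.

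Genes were tested with edgeR 4.0.16 (R 4.3.3): filterByExpr with a minimum count of 10, TMM scaling, a robust quasi-likelihood fit with group as its only term, two-sided, Benjamini-Hochberg over 8200 genes, threshold 0.05. Raw counts of 10 in 3 libraries can favour the deeper KO-labelled libraries, so that rule served as an alternative filter. CPM uses TMM-scaled totals. Alternatives were DESeq2 1.42.0, limma-voom (limma 3.58.1), 2 other scalings, 3 other filters, a replicate block, thinning, leaving out each library and, added after seeing the data, a correction for GC content and exon length and the removal of ribosomal RNA genes with Gm42418. The scripts were tested on simulated data. Intervals are at 95%. Amplified reads are not independent molecules.

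The 50 members, their 8 subclasses and the other lists were chosen with earlier results of these data known. Values per library are given for the highest mean, highest and lowest fold change of each subclass and for members with an unadjusted p under 0.05. The gene with the smallest p of each further list is given with values per library (Spag5, Foxm1 and Uhrf1) or as mean ± SD. Per-library values of Plk1, Kif11, Kif20a, Kif2c, Mki67 and Cks2 were added after they were seen. Septin2, Septin7 and Septin9 were matched under their older symbols.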

Additional observations from a re-analysis of the deposited data

How the results depend on the processing

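The count of members called was 0 in edgeR under every other scaling, filter, thinning and block, including each library left out, and DESeq2 called 1 (Kif18b). Over all genes 33 passed, against 234 with DESeq2, 91 without a filter and 88 after a correction for GC content and exon length that was chosen after seeing the data, and 6 to 29 with 1 library left out. The members' median of -0.22 was -0.11 with library totals, which move the median of all genes from -0.02 to 0.09, and -0.33 to -0.22 with 1 library left out. With 1 library left out, subclass medians ran from -0.582 to -0.304 for the checkpoint, -0.317 to 0.014 for the kinesins and -0.483 to -0.131 for the kinetochore. The 4 members without overlap were 3 with library totals and 5 with DESeq2's size factors, and became 8 to 11 with 1 library left out, where fewer samples must separate. Some estimates turned sign. With DESeq2, its size factors, totals, limma-voom, the replicate block and the correction Kif20b stood at 0.024, 0.02, 0.088, 0.095, 0.092 and 0.124. Ccnb1 stood at -0.04 with limma-voom, -0.036 with the block and -0.008 after thinning. Bub1 stood at -0.267, -0.172 and -0.118 with limma-voom, the block and the correction. Smc4 stood at 0.07, 0.001 and 0.047 with totals, the block and the correction, and with totals Nusap1 stood at 0.032 and Prc1 at 0.049. With 1 library left out Ccnb1 ran from -0.38 to 0.26, Bub1 from -0.60 to 0.37, Smc4 from -0.24 to 0.20, Kif20b from -0.27 to 0.45, Prc1 from -0.21 to 0.17, Nusap1 from -0.33 to 0.27 and Birc5 from -0.16 to 1.54. The cause was not tested. Deviations of same-numbered libraries had correlations of -0.02, -0.003 and -0.007 over all tested genes. Over the 50 members these were 0.286, 0.228 and -0.282, and libraries with unlike numbers ran from -0.512 to 0.47. The labels do not say that a number marks a shared culture, so the numbers were not read as pairs. The replicate block called 38 genes in all and 0 members, with a member median of -0.249. Counting error was largest for Cks2 (19.5%), Kif18b (15.9%), Cenpa (12.9%) and Birc5 (12.4%), below the spread between libraries of each (150.3%, 84.9%, 64.4% and 75.7%), and 31 of 50 intervals reach past a 2-fold change.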
